A study of Homo sapiens with 8 samples.

Results

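The genes described here are the Musashi RNA-binding proteins MSI1 and MSI2 and the cold-inducible RNA-binding proteins CIRBP and RBM3. They were picked by symbol because MSI2 and CIRBP had footprints lower with miRNA inhibitors in these same data. Of the 4 genes, 3 were analysed, among 17179 gene symbols in all, and RBM3 was not analysed here. Ribosome profiling sequences the short pieces of mRNA that ribosomes shield from nuclease, so a gene's count reports ribosomes on its message. It was done in 293T cells, a human embryonic kidney line with SV40 large T antigen. The 8 libraries form 4 groups of 2: cells given shNBD1, a short hairpin RNA that does not cleave, their shRNA control, cells given miRNA inhibitors, and their inhibitor control. The labels name neither the inhibited miRNAs nor what NBD1 stands for, and give no dose, time or way of delivery. RNA libraries were not used here. A lower footprint count can come from less mRNA, less translation of it, or both, which cannot be told apart.

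Musashi proteins carry a pair of RNA recognition motifs, bind UAG-containing sites, mostly in 3′ untranslated regions, and repress or promote translation of the bound mRNA. MSI1 is known from neural progenitors, where it represses NUMB, an inhibitor of Notch signalling, and MSI2 from haematopoietic stem cells and leukaemia. CIRBP and RBM3 have a single RNA recognition motif and a tail rich in glycine and arginine. Their levels go up in mild hypothermia, they bind many mRNAs, and CIRBP expression goes down when cells are warmed.

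In GRCh38.p14 MSI1 spans chr12:120339662-120369164, MSI2 chr17:57255851-57701581 and CIRBP chr19:1269332-1274880, and in the files each has 1 gene and transcript feature. RefSeq's promoter table, 250 bases before to 50 after a start, matched MSI2, with 2 starts, and CIRBP. These windows are shown because MSI2 and CIRBP were both lower with the inhibitors. All 3 are on the plus strand, and capitals mark every match, on either strand, to any of the motifs searched. These were TATAA, searched for as the TATA box, CCAAT, bound by the factor NF-Y, and GGGCGG, bound by factors such as Sp1. The others were an octamer described as a mild-cold element of mouse Cirp, TCCCCGCC, and the core of heat-shock elements, GAANNTTC.
CIRBP, chr19:1269082-1269381: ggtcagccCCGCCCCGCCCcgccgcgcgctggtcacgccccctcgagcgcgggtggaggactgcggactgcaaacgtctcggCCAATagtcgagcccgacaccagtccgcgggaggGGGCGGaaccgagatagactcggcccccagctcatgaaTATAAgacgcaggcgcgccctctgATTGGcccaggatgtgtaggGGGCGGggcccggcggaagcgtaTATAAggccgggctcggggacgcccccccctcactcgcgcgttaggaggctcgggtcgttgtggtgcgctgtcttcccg
MSI2, upstream start, chr17:57255601-57255900: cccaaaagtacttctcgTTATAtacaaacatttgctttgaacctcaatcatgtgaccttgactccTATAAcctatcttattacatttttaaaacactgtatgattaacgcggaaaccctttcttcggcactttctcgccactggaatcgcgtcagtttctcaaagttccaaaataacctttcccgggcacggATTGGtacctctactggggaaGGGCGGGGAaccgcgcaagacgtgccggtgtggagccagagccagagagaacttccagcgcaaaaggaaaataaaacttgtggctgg
MSI2, downstream start, chr17:57256769-57257068: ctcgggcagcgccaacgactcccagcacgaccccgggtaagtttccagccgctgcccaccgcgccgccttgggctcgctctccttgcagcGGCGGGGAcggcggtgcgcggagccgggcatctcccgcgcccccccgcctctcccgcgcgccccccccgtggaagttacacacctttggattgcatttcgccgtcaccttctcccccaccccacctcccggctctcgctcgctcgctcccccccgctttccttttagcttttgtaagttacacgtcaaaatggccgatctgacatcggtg

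The CIRBP window was 70.3% G and C and held 2 TATAA matches, the nearer beginning 29 bases before the start, 2 CCAAT matches and 4 GGGCGG matches, of which the first pair share a base. The upstream MSI2 window was 46.3% G and C and held 2 TATAA matches, 1 CCAAT, and a run in which GGGCGG and the reverse complement of the octamer overlap. The downstream MSI2 window, 67.7% G and C, held the octamer once and no other searched motif. The CIRBP window did not hold the octamer, and none of the 3 windows held the heat-shock core. Among 35116 promoter windows of the same length in the table, TATAA was in 20.4%, CCAAT in 34.6%, GGGCGG in 45%, the octamer in 8.52% and the heat-shock core in 6.77%. A match describes letters only and shows no bound factor.

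Total counts per library ranged from 11218980 to 19854218. Over all genes tested, replicates had an SD on the log2 scale of 0.19 with shNBD1 and 0.19 in its control, and of 0.25 with the inhibitors and 0.21 in their control. Nothing in the labels says that replicates are separate cultures, so the spread behind each p-value may be purely technical. The row for an NBD1 reporter stood at 7040 and 7233 counts-per-million (CPM) with shNBD1, against 9129 and 9082 CPM in the shRNA control. Of the markers taken for 293T, VIM (3063 to 6172 CPM) and KRT18 (424.9 to 770.8 CPM) were abundant and INA reached 70.1 CPM, while NEFM and PAX2 stayed at or below 3.44 CPM and NEFL was not analysed here. Among markers of other cell types CD68 was at 10.6 to 38.5 CPM, COL3A1 and PECAM1 at or below 4.34 CPM, and PTPRC, ALB, HBB and CD3E had at most 6 counts in a library.

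The member that changed with the hairpin was MSI1. Its footprints stood at 29.6 and 29.9 CPM with shNBD1, against 20.7 and 17.0 CPM in the shRNA control. Both shNBD1 libraries were the highest of all 8, and the groups did not overlap. The raw counts were 416 and 439 with shNBD1, against 311 and 208 in the shRNA control. The mean was 29.7 ± 0.21 CPM with shNBD1 and 18.8 ± 2.56 CPM in the shRNA control (SD, n = 2 each). MSI1 rose 1.57-fold, a log2 fold change of 0.65 ± 0.11 (SE) with a 95% interval of 0.41 to 0.89 (adjusted p = 0.00309, edgeR's quasi-likelihood test over 13306 genes). This comparison used none of the libraries on which the genes were picked, apart from a spread estimated over all 8. With shNBD1 18.3% of all genes tested were called and 9.18% were called higher, so 1 call among 3 genes is not far from the background. In log2 fold change, 807 genes stood above MSI1. The spread of MSI1 lay mostly in the shRNA control: the log2 fold change was 0.81 without its replicate 1 and 0.53 without its replicate 2, where the adjusted p was 0.0469.

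**Figure D1:**
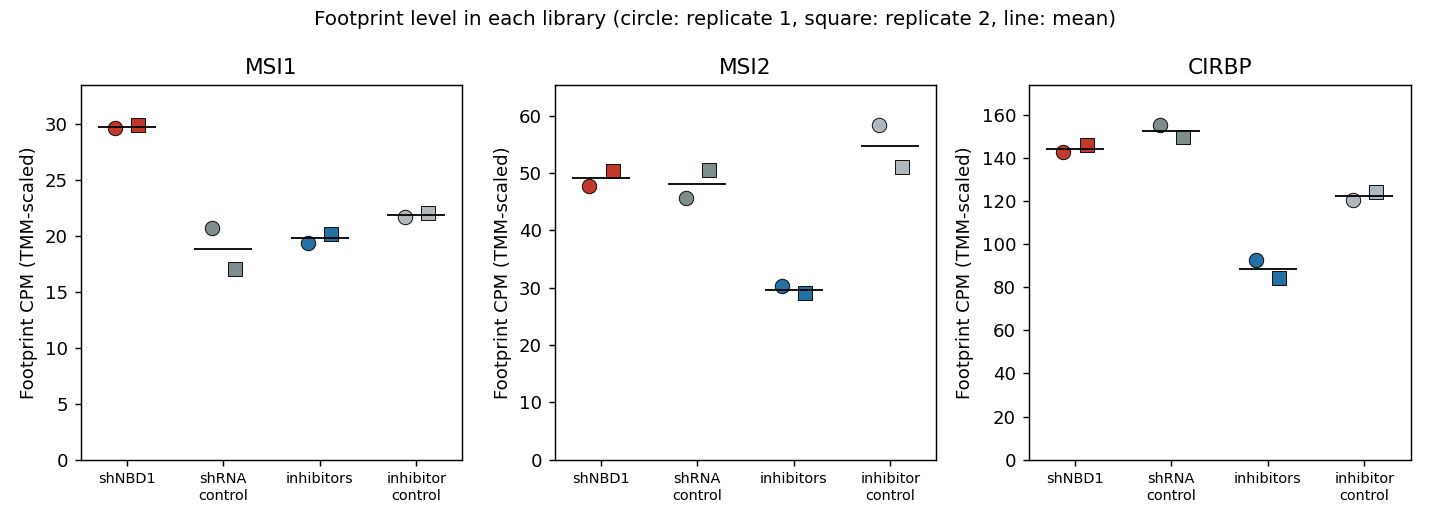
Footprint level (TMM-scaled CPM, axes from 0) of MSI1, MSI2 and CIRBP in each library, by group, with circles for replicate 1, squares for replicate 2 and lines for group means. MSI1 is highest in both shNBD1 libraries (29.6 and 29.9 CPM), MSI2 and CIRBP lowest in both inhibitor libraries (30.3 and 29.1 CPM, and 92.5 and 84.2 CPM).

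MSI2, the paralogue of MSI1, showed no such difference. It stood at 47.8 and 50.4 CPM with shNBD1, against 45.6 and 50.5 CPM in the shRNA control. The groups overlapped, with the shNBD1 libraries between the controls. The log2 fold change was 0.03 ± 0.09, with a 95% interval of -0.17 to 0.24 (adjusted p = 0.836, edgeR), which leaves room for a change of either sign. The interval lies below the 0.65 of MSI1, but it rests on 2 libraries per group, whose spread may be purely technical. The difference between MSI1 and MSI2 was not tested.

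CIRBP was at 142.5 and 145.7 CPM with shNBD1, against 155.1 and 149.5 CPM in the shRNA control. Both shNBD1 libraries lay below both controls, as they did for 34.3% of all genes tested, and for MSI1 the libraries lay above, as for 34.7%. The log2 fold change of CIRBP was -0.08 ± 0.07, with a 95% interval of -0.24 to 0.08 (adjusted p = 0.461, edgeR), so no change passed the test.

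With the inhibitors the values are a description, since this comparison was used to pick the genes. MSI2 stood at 30.3 and 29.1 CPM with the inhibitors, against 58.4 and 51.0 CPM in the inhibitor control. The inhibitor libraries are the lowest of all 8 for this gene, and inhibitor control replicate 1 is the highest. The raw counts were 484 and 308 with the inhibitors, against 1142 and 999 in the inhibitor control. The level with the inhibitors was 0.544 times the control level, a log2 fold change of -0.88 ± 0.10 (SE), and 87 of 13306 genes had a lower one. Taken by replicate number, the difference was -0.95 for the libraries numbered 1 and -0.81 for those numbered 2.

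CIRBP stood at 92.5 and 84.2 CPM with the inhibitors, against 120.4 and 124.3 CPM in the inhibitor control. The groups did not overlap, and the inhibitor libraries were again the lowest of all 8. The raw counts were 1480 and 890 with the inhibitors, against 2356 and 2435 in the inhibitor control. The level was 0.723 times that in the control, a log2 fold change of -0.47 ± 0.07, with -0.38 for the libraries numbered 1 and -0.56 for those numbered 2. Inhibitor replicate 2, the shallowest library, had the lowest level of both MSI2 and CIRBP.

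MSI1 moved little with the inhibitors. It stood at 19.4 and 20.1 CPM with the inhibitors, against 21.7 and 22.0 CPM in the inhibitor control. The log2 fold change was -0.15 ± 0.11, with -0.16 for the libraries numbered 1 and -0.13 for those numbered 2. The inhibitor libraries lay below both controls for all 3 genes, as they did for 20.3% of all genes tested. In this comparison 0.12% of all genes tested were called, 5 higher and 11 lower, and nothing is read from that share, since calls in it led to the choice of genes. On the 4 libraries of the inhibitor arm alone edgeR called 0 genes, with 1164 at an unadjusted p under 0.05 and 118 called by DESeq2 on all libraries, while the log2 fold changes there were -0.88 for MSI2, -0.47 for CIRBP and -0.15 for MSI1.

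**Figure D2:**
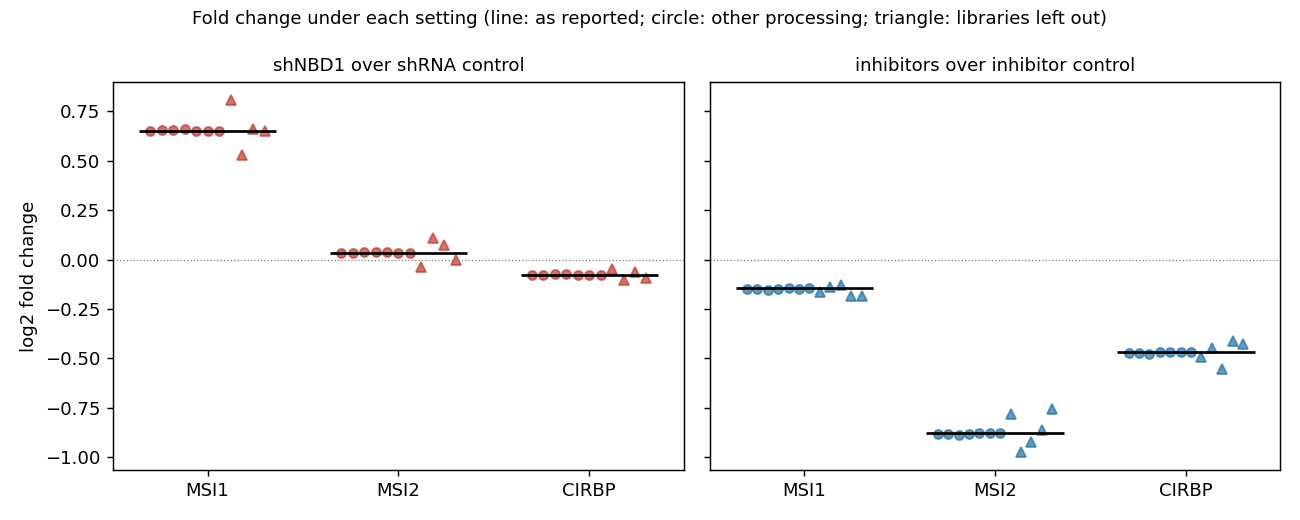
Log2 fold change of each gene with shNBD1 over the shRNA control (left) and with the inhibitors over the inhibitor control (right). Black lines are the reported values, circles other processing and triangles fits with libraries left out; MSI1 stays between 0.53 and 0.81 with shNBD1, and MSI2 between -0.97 and -0.75 and CIRBP between -0.55 and -0.41 with the inhibitors.

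Set side by side over the groups, the 3 genes have different orders. For MSI1 the means were 29.7 CPM with shNBD1, 21.8 for the inhibitor control, 19.8 under inhibition and 18.8 for the shRNA control, where the libraries of the lowest pair of groups overlapped. For MSI2 they were 54.7 CPM in the inhibitor control, 49.1 with shNBD1, 48.1 in the shRNA control and 29.7 with the inhibitors, and shNBD1 and the shRNA control overlapped. For CIRBP they were 152.3 CPM in the shRNA control, 144.1 with shNBD1, 122.4 for the inhibitor control and 88.3 with the inhibitors, with no overlap between neighbours. The highest library was 1.75 times the lowest for MSI1 and 1.84 times for CIRBP, and MSI2 lay between 29.1 and 58.4 CPM.

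The control groups themselves were not level. CIRBP was 1.24 times as high in the shRNA control as in the inhibitor control, a log2 fold change of 0.32 ± 0.07. MSI2 and MSI1 were lower in the shRNA control, by log2 values of -0.19 ± 0.09 and -0.21 ± 0.11. The inhibitor control also served in picking the genes, so these are given with no test. Libraries of one control group lay wholly above the other for CIRBP, as for 33.7% of all genes tested, and wholly below for MSI1 and MSI2, as for 33.4%.

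The balance of the Musashi paralogues can be followed within a library, where scaling cancels. The count of MSI2 over that of MSI1 was 1.62 and 1.69 with shNBD1, against 2.21 and 2.97 in the shRNA control. It was 1.56 and 1.45 with the inhibitors, against 2.69 and 2.32 in the inhibitor control. The ratio was thus lower in both treated groups than in any control library, with MSI1 higher under the hairpin and MSI2 lower under the inhibitors. The inhibitor part follows from the choice of MSI2 for its fall there, so no shared shift is read from it. How often the ratios of other gene pairs separate was not counted. The ratio depends on message length and does not say which protein is made more. The count of CIRBP over that of MSI2 was 2.98 and 2.89 with shNBD1, against 3.40 and 2.96 in the shRNA control, groups that overlapped. It was 3.06 and 2.89 with the inhibitors, against 2.06 and 2.44 in the inhibitor control, so MSI2 was lower by more than CIRBP was.

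Counting error, the inverse square root of the count, was 4.77% to 6.93% of the value for MSI1, 2.96% to 5.70% for MSI2 and 2.03% to 3.35% for CIRBP. It covers the sampling of reads only, not their amplification. MSI1 thus rests on the fewest reads, 208 in its lowest library. MSI1 and MSI2 are similar in sequence, as are CIRBP and RBM3, and how reads that match several genes were counted is not given in the sources used here.

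Genes of most similar pattern were sought as those with the smallest root-mean-square difference in log2 CPM over the 8 libraries, each centred on its own mean, among 10908 other genes that averaged 50 or more counts. For MSI2 these were CYP4X1, a cytochrome P450 (0.11), STMN3, a stathmin of microtubule dynamics (0.11), and NOTCH3, a Notch receptor (0.12), against a median of 0.39 over all genes. With the inhibitors their log2 fold changes were -0.76, -0.82 and -0.79, and with shNBD1 0.24, 0.27 and 0.26, above the 0.03 of MSI2. For CIRBP they were SMDT1, a regulator of the mitochondrial calcium uniporter (0.05), NIF3L1 (0.06) and SNRNP25, a protein of the minor spliceosome (0.06), against a median of 0.34. Their log2 fold changes with the inhibitors were -0.45, -0.43 and -0.37. For MSI1 they were CPQ, a carboxypeptidase (0.08), DBN1, the actin-binding protein drebrin (0.09), and TNFAIP1, an adaptor of a ubiquitin ligase (0.09), against a median of 0.32. With shNBD1 their log2 fold changes were 0.61, 0.68 and 0.49. The libraries come in 4 groups, so a likeness over them is mostly a likeness of group means. The genes named were the nearest of all those searched, so distances below the median follow from the search. All 8 libraries were matched, among them the inhibitor arm on which MSI2 and CIRBP were picked. Fold changes close to the member's own thus also follow from the search, and nothing is read from them.

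**Figure D3:**
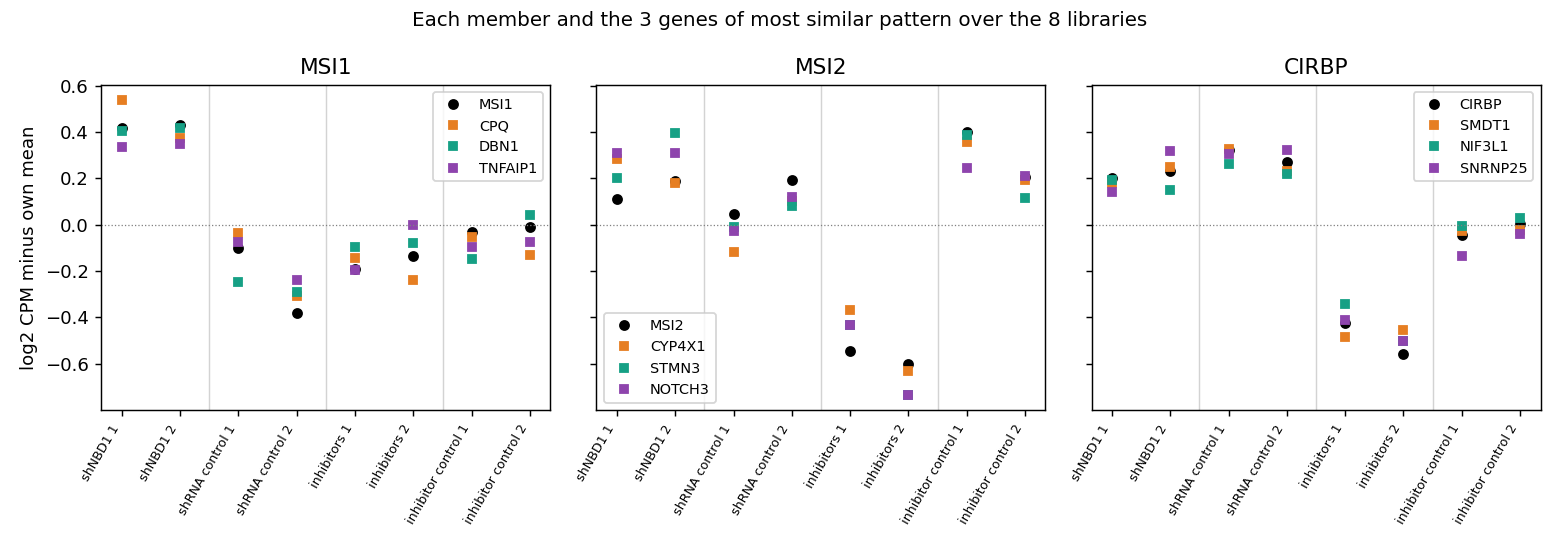
Log2 CPM minus the gene's own mean for MSI1, MSI2 and CIRBP (black circles) and the 3 genes nearest to each (coloured squares) over the 8 libraries. The CIRBP neighbours lie closest, at 0.05 to 0.06, and the MSI2 neighbours lie above MSI2 in shNBD1 replicate 1.

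Lists of related genes were read from the same fit, with 100 genes tested in all and 29 called with shNBD1, against 18.3% of all genes tested called and 9.18% called higher. The counts of each list are to be read against these shares. With the inhibitors 0.12% of all genes tested were called, so a list with none called does not show a lack of response. Of 10 RNA recognition motif proteins akin to Musashi, 2 fell and none rose with shNBD1 (median log2 fold change -0.02, against 0.00 over all genes tested). HNRNPD, which binds AU-rich elements, fell by 0.30 ± 0.06 (adjusted p = 0.00896, edgeR) and HNRNPA2B1 by 0.27 ± 0.07, while MSI1 in the same fit stood at 0.65. With the inhibitors none of the 10 was called and they lay between -0.16 and 0.19. MSI2 stood at -0.88, but it was picked for its fall there, so nothing is read from that contrast. Of 12 tested mRNAs reported as Musashi targets, 2 rose and 1 fell with shNBD1 (median -0.05). CDKN1A, the cell-cycle inhibitor p21, stood at 185.7 ± 21.8 CPM with shNBD1 and 239.0 ± 8.03 CPM in the shRNA control (SD, n = 2 each), and fell by 0.36 ± 0.09. NUMBL, a relative of NUMB, rose by 0.37 ± 0.10 and SMAD3, a mediator of TGF-beta signals, by 0.38 ± 0.11. NUMB itself, chosen after its values were seen, did not pass either test, at 0.10 ± 0.09 with shNBD1 and -0.01 ± 0.09 with the inhibitors. No Musashi target was called with the inhibitors (median 0.01, 6 of 12 above 0).

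Of 19 other RNA-binding proteins of stem and fetal cells, 6 rose and 3 fell with shNBD1 (median 0.01). LIN28B, a let-7 antagonist with a cold-shock domain, stood at 15.4 ± 0.48 CPM with shNBD1 and 7.32 ± 0.87 CPM in the shRNA control, a rise of 1.08 ± 0.13. IGF2BP2, an mRNA-stabilising protein, rose by 0.46 ± 0.08, CELF1, a splicing and decay factor, fell by 0.49 ± 0.08 and FMR1, a translational repressor, by 0.58 ± 0.10. None was called with the inhibitors. Among 8 cold-shock domain proteins LIN28B, counted above as well, was the 1 that rose with shNBD1 (median -0.10), and none was called with the inhibitors. Falls in this list are not reported here.

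Of 10 RNA recognition motif proteins set beside CIRBP, 1 rose and 2 fell with shNBD1 (median -0.05). These were the splicing regulators SRSF2 at 0.36 ± 0.11 and TRA2A at -0.32 ± 0.07, and TAF15, an RNA-binding protein, at -0.24 ± 0.07. With the inhibitors none of the 10 was called, and all lay between -0.11 and 0.29. CIRBP stood at -0.47, but it too was picked for its fall there. Of 11 regulators and partners of CIRBP and RBM3, 1 rose and 3 fell with shNBD1 (median -0.15). HNRNPH1, which acts on an RBM3 exon, fell by 0.40 ± 0.07, TNPO1, which imports CIRBP into the nucleus, by 0.37 ± 0.07 and CLK1, a kinase sensitive to temperature, by 0.57 ± 0.14, while HSF1, the heat-shock transcription factor, rose by 0.57 ± 0.14. Of 15 mRNAs reported as targets of CIRBP or RBM3, 2 rose and 2 fell with shNBD1 (median -0.02). CLOCK, a circadian transcription factor whose mRNA is bound by Cirbp in mouse cells, fell by 1.38 ± 0.19. It stood at 2.85 ± 0.010 CPM with shNBD1 and 7.46 ± 0.22 CPM in the shRNA control. Counting error was not worked out for CLOCK, and at so low a level it can exceed an SD over 2 libraries. PER2, of the same clock, rose by 0.62 ± 0.15, YAP1, a transcriptional coactivator, by 0.54 ± 0.12, and CCNE1, a cyclin, fell by 0.37 ± 0.10. None of the regulators or targets was called with the inhibitors, with medians of -0.01 and 0.00.

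Heat-inducible chaperones, which warmth raises while it lowers CIRBP, held 2 of 16 that rose and 1 that fell with shNBD1 (median -0.03). HSPB1 rose by 0.87 ± 0.12 and the co-chaperone BAG3 by 0.36 ± 0.11, while HSPH1 fell by 0.41 ± 0.07. With the inhibitors none was called, but all 16 lay above 0, from 0.0017 to 0.60 with a median of 0.22. Of all genes tested 51.5% lay above 0. The list was chosen with earlier results known and its genes are not independent: HSPA1A and HSPA1B both stood at 0.23 there. Between the control groups, CIRBP was higher for the shRNA control (mean 152.3 against 122.4 CPM). So were the chaperones HSPA1A (2845 against 1400 CPM) and HSP90AA1 (3806 against 2986 CPM). HSPA8, DNAJA1, HSPD1, AHSA1 and FKBP4 had lower means in that group. Whether temperature had a part in either CIRBP difference was not tested. Leaving out inhibitor control replicate 1 and inhibitor replicate 2 sets 1 library against 1, of different replicate numbers, so only effect sizes are given. There the chaperone median was 0.09, 13 of 16 lay above 0, and the log2 fold change of CIRBP was -0.43. In that fit the medians of the other lists ran from 0.02 to 0.07.

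Adjusted p-values of the 24 list genes that met the naming rule with shNBD1 ran up to 0.0469 in edgeR's quasi-likelihood test. LIN28B, CLOCK and HSPB1 kept their call in every alternative run. The calls of 20 of the 24 were lost without shRNA control replicate 1 (adjusted p up to 0.285), 14 without its replicate 2 (up to 0.181), 13 without shNBD1 replicate 1 (up to 0.147) and 19 without its replicate 2 (up to 0.325), and of all list genes 5, 10, 13 and 6 were then called. MSI1 kept its call in each of these fits.

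**Figure D4:**
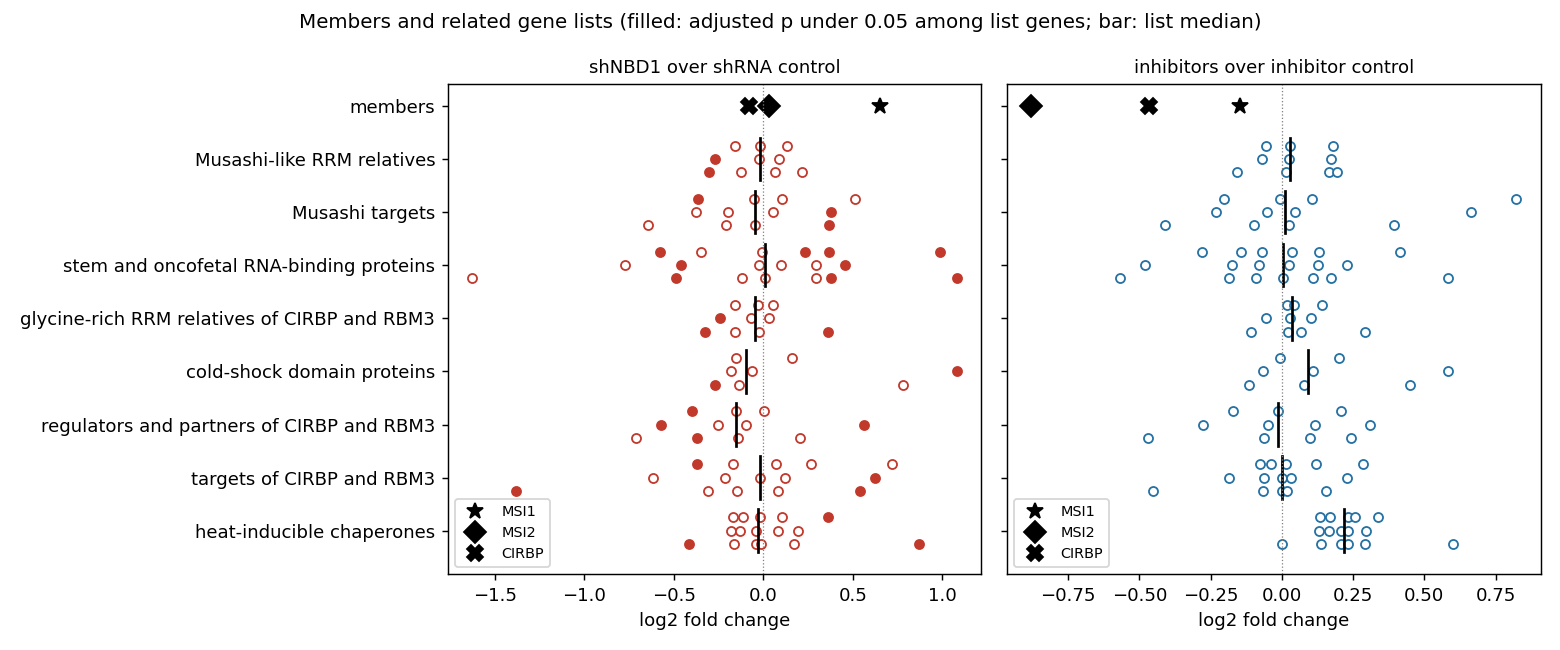
Log2 fold change of the members (black symbols) and of each tested gene of the related lists (circles, filled where the adjusted p is under 0.05, bars at the list medians), with shNBD1 on the left and the inhibitors on the right, on separate scales. MSI2, picked for its fall with the inhibitors, lies at -0.88 on the right, and all 16 chaperones there lie above 0.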

How the data were processed

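Per the labels' protocols, polysome buffer with cycloheximide was used for lysis and a ribosome profiling kit, with changes, for the libraries. The submitters' processing notes name cutadapt, Bowtie and GRCh38. Versions, the counting tool and the handling of multiply matching reads are not given in the sources. The authors deposited raw whole-number counts per gene and transcript feature, 1 file per library, which leave out features without reads (taken as 0). Cycloheximide can shift ribosomes along a message, unseen in such counts.

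All 18037 features were summed to 17179 symbols. After filterByExpr (minimum count 10, minimum total 15) and TMM scaling, genes were fitted with edgeR 4.0.16 in R 4.3.3 (quasi-likelihood, 4 groups, all 8 libraries, 4 residual degrees of freedom). Benjamini-Hochberg adjustment ran over 13306 genes, with a threshold of 0.05. CPM use TMM-scaled library sizes, and the SE is that implied by the test. Symbols named ZNF354B and ST8SIA1 took 5.99% to 11.3% of counts. DESeq2 1.42.0 was an alternative.

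The members and lists were chosen with earlier results of these data known. Genes named were all members, up to 4 of each list called with shNBD1 by smallest p, any called with the inhibitors, and the 3 nearest in pattern. Of these, 1 list gene is not reported here. On simulated counts for shNBD1 (13155 genes), the test found 12% of changes of 1.25-fold, 62% at 1.5-fold, 96% at 2-fold and 100% at 4-fold. Only genes averaging 50 or more counts were changed, and 142 genes were called, against 2440 in the data. The adjusted threshold was thus stricter in the simulation, so these shares are not the power of the reported test. Alternatives were size factors, tool, filters, libraries of 1 arm, the replicate number as a block, the largest feature per symbol and leaving out each library.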

Additional observations from a re-analysis of the deposited data

Results flagged for a closer look

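For MSI1 both shNBD1 libraries lay above both shRNA controls (log2 fold change 0.65 ± 0.11) and both inhibitor libraries below both inhibitor controls (-0.15 ± 0.11, a value little over 1 SE from 0). The difference, 0.80, was not tested, since the genes were picked on the inhibitor arm, and a move of MSI1 with the inhibitors is not shown.

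Among the related genes named, 5 had effects that differed between the treatments by the test of the difference itself in edgeR. Over all 13306 genes 7.44% were called for the difference, and 34.1% of the 2440 called with shNBD1. The genes were named by their p with shNBD1, which is part of that difference, so nothing is read from their number. CLOCK stood at -1.38 with shNBD1 and 0.03 with the inhibitors, a difference of -1.42 (adjusted p = 0.00873). HSPH1 stood at -0.41 and 0.29, a difference of -0.70 (adjusted p = 0.00378). TNPO1 stood at -0.37 and 0.24, a difference of -0.62 (adjusted p = 0.00553). HNRNPH1 stood at -0.40 and 0.21, a difference of -0.60 (adjusted p = 0.00689). CELF1 stood at -0.49 and 0.00, a difference of -0.49 (adjusted p = 0.0286).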

How the results depend on the processing

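MSI1 kept its rise with shNBD1 in all 11 alternatives, at log2 fold changes of 0.53 to 0.81 and adjusted p up to 0.0469. CIRBP passed in none of its 11 (-0.10 to -0.05). MSI2 passed in none and lay on either side of 0, from -0.037 without shRNA control replicate 1 to 0.11 without its replicate 2, with -0.00358 without shNBD1 replicate 2. Calls with shNBD1 were 2440, against 5314 on its 4 libraries alone and 532 to 1022 with 1 library left out. Calls with the inhibitors were 16, against 118 with DESeq2, 179 with no filter on low counts, 0 on the 4 libraries alone (edgeR, 1164 at an unadjusted p under 0.05), 4 without inhibitor control replicate 1, 639 without its replicate 2, 930 without inhibitor replicate 1 and 6 without its replicate 2. An alternative chosen after seeing the data left out inhibitor control replicate 1 and inhibitor replicate 2, and so set 1 library against 1. The log2 fold changes there were -0.75 for MSI2 and -0.18 for MSI1. With 1 library left out the inhibitor values ran from -0.97 to -0.78 for MSI2, -0.55 to -0.41 for CIRBP and -0.18 to -0.13 for MSI1. The cause of these shifts was not tested, beyond the fewer libraries in such fits. The labels give the groups shared replicate numbers. Same-numbered libraries deviated together over 13306 genes with a Pearson r of 0.02 in the shRNA arm and 0.42 in the inhibitor arm (genes are not independent replicates). With the replicate number as a block, 3408 genes were called with shNBD1 and 675 with the inhibitors, and MSI1 stood at 0.65 (adjusted p = 0.000659). Of 264 refits of the 24 list genes under the naming rule 194 kept the call, 70 lost it and 0 changed sign; outside left-out libraries, NUMBL, TAF15 and PER2 lost it with DESeq2 (adjusted p up to 0.109) and SRSF2 with a mean of at least 50 counts (0.0502).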
